A study of Mus musculus with 12 samples.

Results

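The oligoadenylate synthetase (Oas) family was followed through mouse skin on 12 dual-colour microarrays in 4 groups of 3. The mice were C57BL/6 males aged about 8 weeks. Its members are Oas1a, Oas1b, Oas1g, Oas2, Oas3, Oasl1 and Oasl2. They were taken as every non-control probe whose gene name on the array was one of these 7, which gave 11 of 39429 probes. Of these, 10 passed a filter on dim probes, against 27175 probes in all, and they stood for all 7 genes among 20492 genes measured.

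Oas enzymes are antiviral sensors that interferon induces. On binding double-stranded RNA they make short oligoadenylates, second messengers that set off the breakdown of cellular and viral RNA. The Oas-like proteins carry ubiquitin-like domains, and mouse Oasl1 makes no oligoadenylate but restrains translation of the interferon factor Irf7. In skin the family is known as part of the interferon programme of keratinocytes, fibroblasts and immune cells.

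Incised skin carried a sutured wound of 1 cm and was injected 72 h later with 100 nmol of a miR-29b mimic or with PBS, the vehicle. Intact skin was injected with 100 nmol of antimiR-29, an inhibitor of miR-29, or with PBS. Skin was taken 24 h after the injection, so the incised samples were collected 4 days after wounding. Mimic was given only to incised skin and antimiR only to intact skin. None of the 12 samples received an oligonucleotide of a sequence unrelated to miR-29. An effect of blocking miR-29 and an effect of any injected oligonucleotide therefore cannot be told apart. The labels call the samples biological replicates and do not say whether each came from an animal of its own, and p-values measure only the spread between these samples.

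Each value is a log2 ratio of the skin RNA over a universal mouse reference RNA that was the same on every array. Between 65.7 and 73.9% of the probes on an array gave a skin signal well above background, and 0 spots were saturated. All 6 keratinocyte markers and all 6 fibroblast markers were well above background on every array. Intact PBS array 3 stood apart, with a median correlation of 0.921 to the other arrays of its group across genes. The arrays lay on 3 slides, and slide 3 held the 3 antimiR arrays with intact PBS array 3. In whole skin, fewer cells of a type and less RNA per cell cannot be told apart.

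All 7 genes lie on chromosome 5. Probes sit near the 3′ end of a transcript, and 8 of the 11 (72.7%) held a polyadenylation signal, AATAAA or ATTAAA on the transcript's strand, against 17.2% of 36576 probes with a gene name. The stretches of 30 bases below are from the probes whose readings the results turn on, 5′ to 3′, with the signal in capitals where there is one. Positions are those of whole probes in the mm9 build given by the scanner files.
Oas1a, probe at base 1359 of its transcript, chr5:121346735-121346794, minus strand: aagtctgatcaacAATAAAccacagcaggt
Oas1a, probe at base 1023, chr5:121348338-121348397, minus strand: tacccatgttttATTAAAaaggatggttcc
Oas1b, probe at base 1554, chr5:121273890-121273949, plus strand: cagaaggagaatattatggtttgtatatgg
Oas1b, probe at base 1773, chr5:121274109-121274168, plus strand: aagccaaccccaATTAAAtgttgtttttat
Oas1g, probe at base 1813, chr5:121326271-121326330, minus strand: aggtatgatgaaAATAAAaggtacctggaa
Oas2, probe at base 3803, chr5:121180343-121180402, minus strand: tatatgcttcatAATAAAtggtttctttgt
Oas3, probe at base 4167, chr5:121203598-121203657, minus strand: actagacaccctaggaaccagacatctcta
Oasl1, probe at base 2064, chr5:115387861-115387920, plus strand: tttcaaatggagAATAAAaaagccattgtt
Oasl2, probe at base 3049, chr5:115362168-115362227, plus strand: tgtatgacaagtgcttgttaAATAAAgaag

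Another Oas1b probe, at base 1791, shares a run of 42 bases with the one at base 1773, so these are not independent readings. No other pair of probes of the family and its Oas1 paralogs shared more than 16 bases. The Oas1a probe at base 1359 and the Oas1g probe at base 1813 each list RefSeq transcripts of both Oas1a and Oas1g, so the readings of these neighbouring genes cannot be fully separated. The Oas1a probe at base 1023 lists Oas1a alone.

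In intact skin given antimiR, 5 of the 7 genes were higher than under PBS at a limma adjusted p under 0.05: Oas1a, Oas2, Oas3, Oasl1 and Oasl2. Among all 20479 genes tested 5.22% were called higher, 4.46% lower and 9.69% in either direction (24.1% at an unadjusted p under 0.05). The antimiR arrays lay wholly above the PBS arrays for 6 of the 7, against 14.1% of all genes. The median log2 fold change of the family was 2.04, against 0.01 over all genes. The comparison asks what antimiR changed in uninjured skin, and it cannot separate blocked miR-29 from an effect of any injected oligonucleotide.

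Oas2, an enzyme with a duplicated synthetase domain, had log2 ratios of 1.78, 2.10 and 1.78 on the antimiR arrays, against 0.05, 0.14 and -0.66 on the intact PBS arrays. Every antimiR array was above every PBS array. The log2 fold change was 2.04 ± 0.24 (SE; adjusted p = 0.00077), or 4.11-fold. Oas3, the member known in human cells as the main maker of oligoadenylates, read 0.48, 0.65 and 0.69 with antimiR, against -0.46, -0.54 and -0.97 under PBS. Its groups did not overlap either, and the change was smaller, at 1.27 ± 0.17 (adjusted p = 0.0013).

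Oasl2, an Oas-like protein of mouse, read 2.35, 2.98 and 2.58 with antimiR, against 0.69, 0.49 and -0.53 under PBS. This was a change of 2.42 ± 0.33 (adjusted p = 0.0016), or 5.34-fold. Oasl1 read -0.36, 1.00 and 0.16 with antimiR, against -1.62, -1.69 and -2.16 under PBS. It was the member that varied most among the antimiR arrays (SD 0.69, n = 3), yet the groups stayed apart and the change was 2.09 ± 0.35 (adjusted p = 0.0044).

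Oas1a, the mouse gene nearest to human OAS1, had a value on only 2 arrays of each of these groups, since outlier spots were left out. It read 1.97 and 1.68 on antimiR arrays 2 and 3, against 0.35 and -1.54 on intact PBS arrays 2 and 3. The groups did not overlap, and the wide gap between the PBS arrays gave a large error, with a change of 2.42 ± 0.59 (adjusted p = 0.043). Without intact PBS array 3 it was 1.47 (adjusted p = 0.085), and without antimiR array 1, 2 or 3 it was 2.42, 2.27 and 2.56 with an adjusted p of 0.050, 0.16 and 0.12. The Oas1a probe at base 1023 had all 12 values. It read 1.37, 1.70 and 1.34 with antimiR, against 0.04, 0.35 and -1.37 under PBS, a change of 1.79 ± 0.37 (adjusted p = 0.012).

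**Figure D1:**
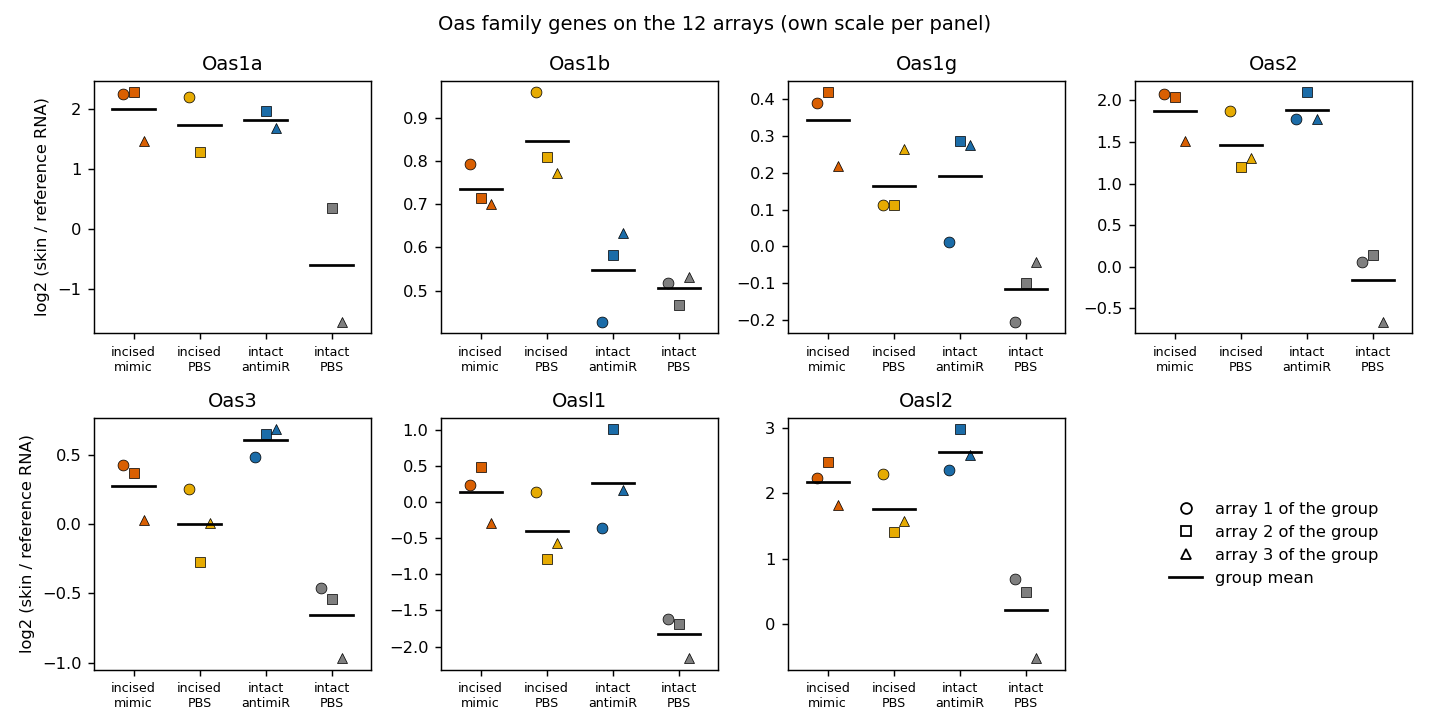
Log2 ratio of skin over reference RNA for the brightest probe of each Oas gene on the 12 arrays. Panels have their own scales, marker shapes number the arrays within a group, and lines are group means. Intact PBS skin has the lowest mean in all 7 panels, and Oas1b is the only panel in which its points overlap those of the next group.

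Oas1g and Oas1b were not called. The Oas1g probe was close to background: it was well above it on 2 of 3 antimiR arrays and on 0 of 3 intact PBS arrays. Its readings were 0.01, 0.29 and 0.27 with antimiR, against -0.20, -0.10 and -0.04 under PBS, a change of 0.31 ± 0.10 (adjusted p = 0.076). Taken as skin signal rather than as a ratio, the antimiR mean was 1.36 times a floor level on the PBS arrays. That level takes, per array, the higher of the reading and the lowest signal counted as above background. This figure carries no error, and its antimiR mean includes the array not well above background. The fitted change was 1.24-fold. A second Oas1g probe, at base 1933, was well above background on 0 of 12 arrays and was not kept.

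The probes named Oas1b gave different answers. Only the probe at base 1554 lists a transcript that RefSeq assigns to Oas1b, and those at bases 1773 and 1791 list none that RefSeq assigns to a gene. Skin signal was 9.2 to 24.2 times background at base 1554 and 341 to 590 times at base 1773. RefSeq's GRCm38.p6 annotation lists Oas1b as a transcribed pseudogene, and laboratory strains such as C57BL/6 are known to carry a truncated form of this flavivirus resistance gene. At base 1773, the brightest probe, it read 0.43, 0.58 and 0.63 with antimiR, against 0.52, 0.47 and 0.53 under PBS, a change of 0.04 ± 0.08 (adjusted p = 0.81, 95% interval -0.14 to 0.22). The overlapping probe at base 1791 gave 0.14 ± 0.10 (adjusted p = 0.41). At base 1554, 219 bases upstream, the readings were 0.57, 0.91 and 0.94 with antimiR, against -0.04, -0.07 and 0.03 under PBS, a change of 0.83 ± 0.14 (adjusted p = 0.0038).

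The effect of antimiR was thus 0.79 larger on the log2 scale at base 1554 than at base 1773, and 0.69 larger than at base 1791. In both cases the differences between probes on the antimiR arrays did not overlap those on the PBS arrays. A 2-sided exact permutation test gave p = 0.1, the smallest that 3 arrays against 3 allow. Of the 2 kept family probes without a polyadenylation signal, this one was called higher and so was that of Oas3. Of the 8 kept probes with a signal, 5 were called higher. The part of probe position in these values was not tested.

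**Figure D2:**
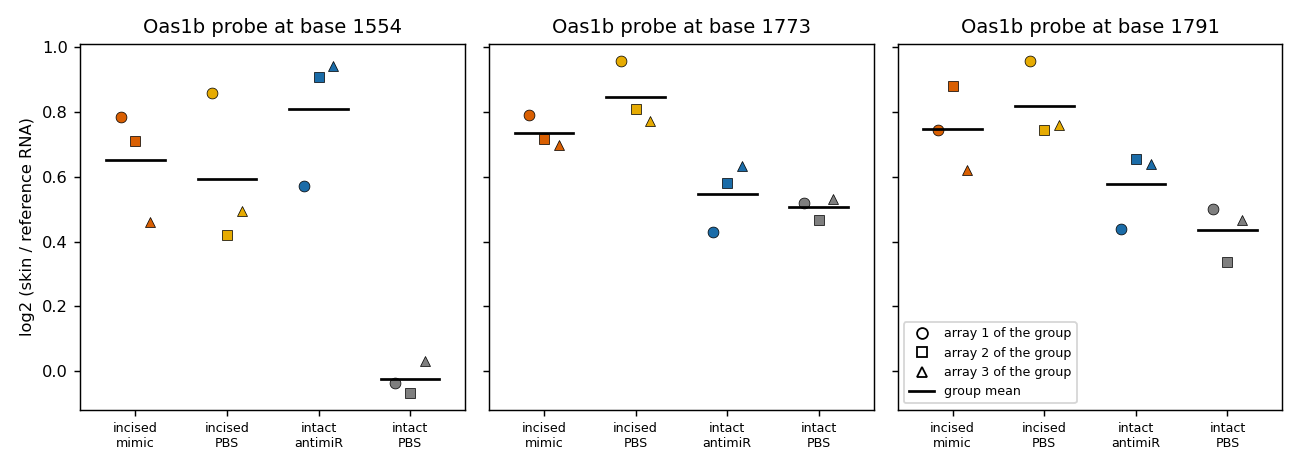
Log2 ratio of skin over reference RNA at the 3 Oas1b probes, named by their first base in the transcript. Intact PBS arrays lie between -0.07 and 0.03 at base 1554, below all other arrays, while at base 1773 intact antimiR and intact PBS arrays overlap.

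Slide 3 alone also allows the comparison. Against the intact PBS array on that slide, the 3 antimiR arrays were higher by 2.55 for Oas2, 1.58 for Oas3, 2.43 for Oasl1 and 3.16 for Oasl2. Oas1a was higher by 3.37 with 2 antimiR arrays, Oas1g by 0.24 and Oas1b at base 1773 by 0.02. That PBS array is the one that stood apart from its group. Without it, Oas2, Oas3, Oasl1 and Oasl2 kept their calls, and over each of the 6 fits that left out 1 array their changes ranged from 1.79 to 2.19, 1.11 to 1.36, 1.72 to 2.41 and 2.04 to 2.65.

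Under PBS, incised skin had higher Oas readings than intact skin. Of the 7 genes, 6 were called higher, all but Oas1g, while 9.86% of 20485 genes were called higher, 5.57% lower and 15.4% in either direction (31.4% at an unadjusted p under 0.05). The incised arrays lay wholly above the intact ones for 7 of 7, against 19.7% of all genes. The family's median was 1.42 and that of all genes was 0.00. This comparison asks what wounding changed. It uses the same intact PBS arrays as the antimiR comparison, so the results share any peculiarity of those arrays.

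Oas2 read 1.87, 1.19 and 1.31 on the incised PBS arrays, against 0.05, 0.14 and -0.66 on the intact ones, a change of 1.62 ± 0.24 (adjusted p = 0.0026). Oasl2 read 2.29, 1.41 and 1.58 in incised skin, against 0.69, 0.49 and -0.53 in intact skin, a change of 1.54 ± 0.33 (adjusted p = 0.012). Oasl1 read 0.14, -0.79 and -0.57 in incised skin, against -1.62, -1.69 and -2.16 in intact skin, a change of 1.42 ± 0.35 (adjusted p = 0.022). In each of these genes the incised arrays all lay above the intact ones, and incised PBS array 1 was the highest of its group.

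Oas3 read 0.26, -0.27 and 0.01 in incised skin, against -0.46, -0.54 and -0.97 in intact skin, a smaller change of 0.66 ± 0.17 (adjusted p = 0.025). Oas1a read 2.20 and 1.28 on incised PBS arrays 1 and 2, against 0.35 and -1.54 on intact PBS arrays 2 and 3, a change of 2.34 ± 0.59 (adjusted p = 0.036). At base 1023, with a value on every array, Oas1a changed by 1.69 ± 0.37 (adjusted p = 0.013). Oas1g stood at 0.11, 0.11 and 0.27 in incised skin, against -0.20, -0.10 and -0.04 in intact skin, a difference of 0.28 ± 0.10 that did not pass (adjusted p = 0.077). Taken as skin signal, its incised mean was 1.30 times the floor level of the intact PBS arrays, again without an error, and the fitted change was 1.21-fold.

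For Oas1b all 3 probes were called in incised skin. At base 1773 it read 0.96, 0.81 and 0.77 in incised skin, against 0.52, 0.47 and 0.53 in intact skin, a change of 0.34 ± 0.08 (adjusted p = 0.018). The change was 0.39 at base 1791 and 0.62 at base 1554. The upstream probe exceeded the others by 0.28 and 0.23, again without overlap of the arrays and with an exact permutation p = 0.1, the smallest possible.

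The wound calls were less secure than those under antimiR. No slide held both PBS groups, so no within-slide value exists. A fit with slide as a fixed block compares them only through the other groups. It ended all 6 calls, with values from 0.27 to 1.11. Over all genes it left 11 of 20483 called, against 3161 in the main fit, so these losses are not particular to the family. Without incised PBS array 1 only Oas2 and Oasl2 were called, and without intact PBS array 3 Oas1b, Oas2 and Oasl2 were. Oas1a also lost its call without incised PBS array 2 (2.79, adjusted p = 0.058) and Oas3 without incised PBS array 3 (0.65, adjusted p = 0.071).

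**Figure D3:**
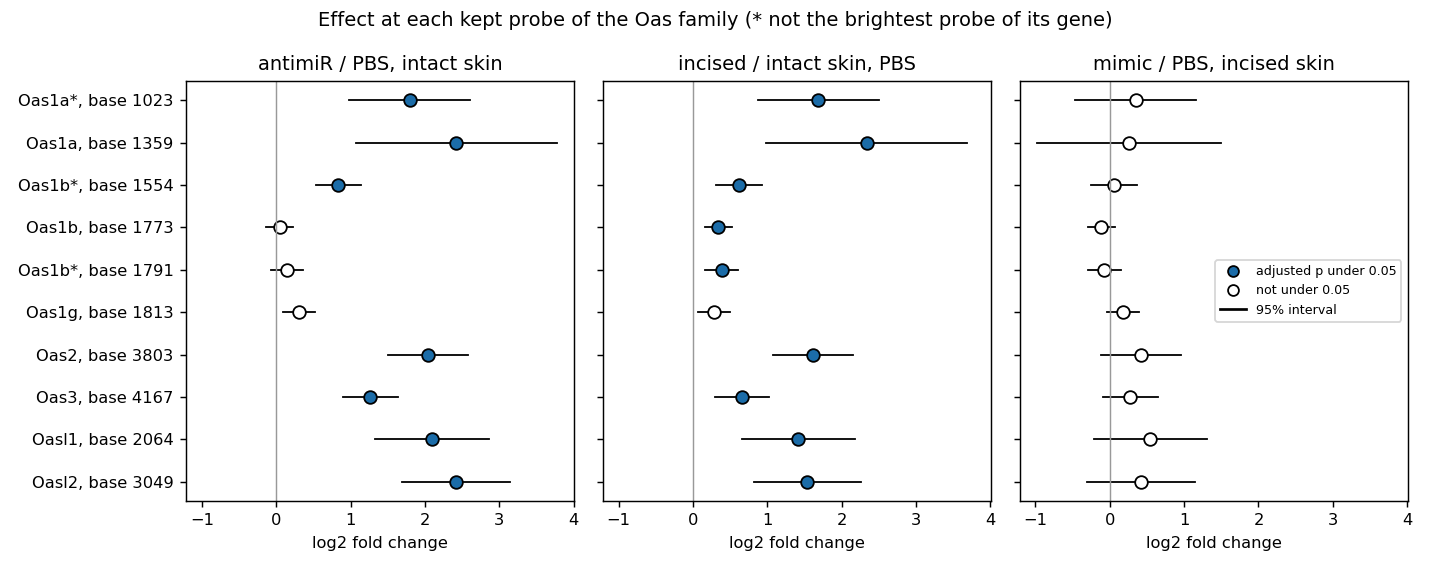
Log2 fold change with 95% interval at the 10 kept probes of the family for antimiR over PBS in intact skin, incised over intact skin under PBS, and mimic over PBS in incised skin. Filled points have an adjusted p under 0.05. Points are filled at 7 probes for antimiR and at 9 for incised skin, and at none for mimic.

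In incised skin, 0 of the 7 genes were called with mimic at a limma adjusted p under 0.05 (0.51 to 0.91), and 0 had an unadjusted p under 0.05. Of all 20483 genes, 0.591% were called in either direction and 12.5% had an unadjusted p under 0.05. The family's median log2 fold change was 0.28, against 0.00 over all genes, and 6 of 7 values were positive. The question here is what the injected miR-29 mimic changed in wounded skin.

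Oas2 read 2.07, 2.04 and 1.52 on the mimic arrays, against 1.87, 1.19 and 1.31 on the incised PBS arrays, a difference of 0.42 (95% interval -0.12 to 0.96). Oasl1 read 0.23, 0.48 and -0.29 with mimic, against 0.14, -0.79 and -0.57 under PBS, a difference of 0.55 with an interval from -0.22 to 1.32. The groups overlapped for all 7 genes. The intervals were -0.09 to 0.65 for Oas3, -0.31 to 1.15 for Oasl2, -0.99 to 1.51 for Oas1a, -0.04 to 0.39 for Oas1g and -0.29 to 0.07 for Oas1b. The antimiR estimates of Oas1a, Oas2, Oas3, Oasl1 and Oasl2 lay above their mimic intervals. Those estimates have errors of their own, and the antimiR interval of Oas1a, 1.05 to 3.79, overlapped its mimic interval. The direct test of the difference, given below, called 0 of the 7 genes. Within slide 1, mimic array 1 differed from the 3 incised PBS arrays by 0.61 for Oas2, 0.43 for Oas3, 0.64 for Oasl1, 0.48 for Oasl2 and -0.05 for Oas1b.

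Within a group the same array was often the extreme one for most members. Mimic array 3 was the lowest of its group for 7 of 7 genes, while it was lowest for 42.9% of all genes. Incised PBS array 2 was the lowest of its group for 6 of 7 genes (39.4% of all genes), and incised PBS array 1 the highest for 6 of 7 (35.2%). Intact PBS array 3 was the lowest for 5 of 7 (42.5%), antimiR array 2 the highest for 5 of 7 (31.0%), and antimiR array 1 the lowest for 5 of the 6 genes it had a value for (32.7%).

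Across the 4 groups, read at the brightest probe of each gene, intact PBS skin had the lowest mean of every member. AntimiR-treated intact skin came highest for Oas2, Oas3, Oasl1 and Oasl2, incised mimic skin for Oas1a and Oas1g, and incised PBS skin for Oas1b. Next to each other in this order, the ranges of the 3 higher groups overlapped, except that Oas3 was higher in antimiR skin than in any incised sample and that Oas1b was lower in both intact groups than in both incised groups. The order of Oas1b depended on the probe. At base 1554 intact antimiR skin had the highest mean, 0.81, with 0.65 in incised mimic skin, 0.59 in incised PBS skin and -0.02 in intact PBS skin, and the 3 higher groups overlapped. At base 1791 the antimiR arrays reached 0.65 and overlapped the mimic arrays, the lowest of which read 0.62. These orders are descriptions of 3 arrays per group.

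The effect of mimic in incised skin minus the effect of antimiR in intact skin was negative for all 7 genes, and 0 passed the threshold in limma. Among all 20476 genes 1.09% were called in either direction and 14.1% had an unadjusted p under 0.05. The differences were -1.62 ± 0.35 for Oas2 (adjusted p = 0.057), -2.00 ± 0.47 for Oasl2 (0.077), -0.99 ± 0.24 for Oas3 (0.084), -1.54 ± 0.49 for Oasl1 (0.175) and -2.16 ± 0.80 for Oas1a (0.276). Oas1g at -0.13 and Oas1b at base 1773, at -0.15, had adjusted p of 0.76 and 0.62. At base 1554 the Oas1b difference was -0.77 ± 0.20 (adjusted p = 0.083), and at base 1791 it was -0.22 (adjusted p = 0.54). Without intact PBS array 3 Oas2 passed (-1.37, adjusted p = 0.047), as it did without intact PBS array 2 (-1.77, adjusted p = 0.0496).

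The 5 other Oas1 paralogs measured were Oas1c, Oas1d, Oas1e, Oas1f and Oas1h. With antimiR, 1 of the 5 was called higher and 0 lower, against 5.22% and 4.46% of all genes. It was Oas1c, which read 0.54, 0.76 and 0.78, against -0.07, -0.02 and -0.11 under PBS, a change of 0.76 ± 0.13 (adjusted p = 0.0058). Oas1f differed by 0.90 ± 0.27 without overlap of its arrays and did not pass (adjusted p = 0.064). Oas1e was at 0.48, with a low reading of -0.21 on intact PBS array 3, and Oas1d was at 0.06. In incised skin 0 of 5 were called under PBS by limma, with values from -0.04 to 0.35 and 1 at an unadjusted p under 0.05. With mimic 0 of 5 passed even unadjusted.

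Pde12, a phosphodiesterase that degrades oligoadenylates, was called lower with antimiR. Pde12 read -0.32, -0.26 and -0.48 with antimiR, against 0.46, 0.63 and 0.04 under PBS, a fall of 0.73 ± 0.17 on the log2 scale without overlap (adjusted p = 0.020). It missed the threshold when antimiR array 3 (-0.67) or either of intact PBS arrays 1 (-0.69) and 2 (-0.61) was left out. With slide as a fixed block it was at -0.39 and was not called (adjusted p = 0.23). Nor was it called with Cy5 alone (-0.63, adjusted p = 0.082) or with only the groups compared (adjusted p = 0.079). The ribosome recycling gene Abce1 at -0.22 and the phosphodiesterase gene Enpp1 at 0.45 did not pass (adjusted p = 0.12 and 0.31). In incised skin under PBS, Pde12 was at 0.04 and was not called.

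Of 12 other genes for sensing or handling foreign RNA and DNA, 7 were called higher with antimiR (median 0.82) and 8 in incised skin under PBS (median 1.00), and 0 were called lower. Among all genes tested, 5.22% were called higher with antimiR and 9.86% in incised skin. Dhx58, a regulator of RNA helicase sensing, read 2.12, 2.63 and 2.42 with antimiR, against 0.24, 0.36 and -0.04 under PBS, a change of 2.21 ± 0.19 (adjusted p = 0.00019). The RNA helicase gene Ddx58 (RIG-I) rose by 1.41 ± 0.15, Zbp1, a sensor of Z-form nucleic acids, by 1.76 ± 0.34, the RNA-editing gene Adar by 1.33 ± 0.18, and Eif2ak2 (PKR), a kinase that stops translation on binding double-stranded RNA, by 1.26 ± 0.19. The helicase gene Ifih1 (MDA5) rose by 1.04 ± 0.20, with 0.21 at its other probe. In incised skin the same 6 genes rose by 1.41, 1.07, 1.20, 1.13, 1.06 and 0.88, and the other Ifih1 probe was at 0.10. Of these, Ifih1 lost its call in incised skin without incised PBS array 1 (0.70), and Zbp1 lost it without any 1 of the incised PBS arrays or intact PBS array 3 (0.78 to 1.33). With slide as a fixed block all 6 lost their calls in incised skin, with values from 0.67 to 1.14, in a fit that called 11 of 20483 genes. With antimiR, Ifih1 lost its call with slide as a fixed block (adjusted p = 0.056) and in a fit of the authors' deposited table, and Zbp1 with only the groups compared (adjusted p = 0.066). With mimic 0 of the 12 were called by limma, and 0 had an unadjusted p under 0.05.

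Of 18 genes of interferon receptors, signalling factors and their feedback, 9 were called higher with antimiR (median 0.52) and 11 in incised skin under PBS (median 0.61), none lower. The shares of all genes called higher were 5.22% with antimiR and 9.86% in incised skin. With mimic 0 were called by limma, and 3 had an unadjusted p under 0.05, as did 12.5% of all genes. Irf8, a factor of myeloid cells, read 2.15, 2.14 and 2.11 with antimiR, against 0.63, 0.76 and 0.87 under PBS, a change of 1.38 ± 0.10 (adjusted p = 6.3e-05). Stat2 and Irf9 are parts of the complex that binds interferon-stimulated response elements. Stat2 rose by 1.79 ± 0.21 and Irf9 by 0.82 ± 0.16 with antimiR, and in incised skin by 0.88 and 0.84. Irf7, the factor that amplifies interferon production, rose by 1.37 ± 0.32 with antimiR and 1.42 ± 0.32 in incised skin, and the feedback protease gene Usp18 by 2.01 ± 0.30 and 1.11 ± 0.30. Irf1 rose by 1.30 ± 0.16 with antimiR, though its other probe was at 0.03, and by 0.68 in incised skin, with 0.06 at the other probe. With antimiR, Irf7 lost its call without intact PBS array 3 (1.13) or antimiR array 2 (1.23). In incised skin Stat2, Irf1, Irf7 and Usp18 all lost their calls without incised PBS array 1. Without incised PBS array 3 Stat2 and Usp18 did, and Usp18 also without intact PBS array 2 or 3. With slide as a fixed block Stat2, Irf9, Irf7, Irf1 and Usp18 lost their calls in incised skin, and Irf8 kept its call. Only 11 of 20483 genes were called in that fit. With antimiR, Irf9 lost its call with Cy5 alone (adjusted p = 0.074) and with only the groups compared, and Irf1 in a fit of the authors' deposited table.

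The receptor genes differed between the comparisons in what passed. Ifnar1 was at 0.21 ± 0.09 with antimiR (adjusted p = 0.20) and rose by 0.51 ± 0.09 in incised skin (adjusted p = 0.0060). Ifnar2 was at -0.08 ± 0.16 with antimiR (adjusted p = 0.80) and rose by 0.71 ± 0.16 in incised skin (adjusted p = 0.013). With slide as a fixed block, where 11 of 20483 genes were called, neither was called in incised skin (adjusted p = 0.39 for Ifnar1 and 0.19 for Ifnar2). The difference between these effects was not tested. Of 10 interferon genes listed, 6 passed the filter on dim probes and 0 were called by limma in any comparison, with antimiR values from 0.01 to 0.30. At an unadjusted p under 0.05 there were 0 with antimiR, 1 in incised skin and 0 with mimic. Ifng was at 0.30 ± 0.19 (adjusted p = 0.39). Ifna4 was well above background on 0 of 12 arrays, and Ifnb1 and Ifne on 1 each.

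**Figure D4:**
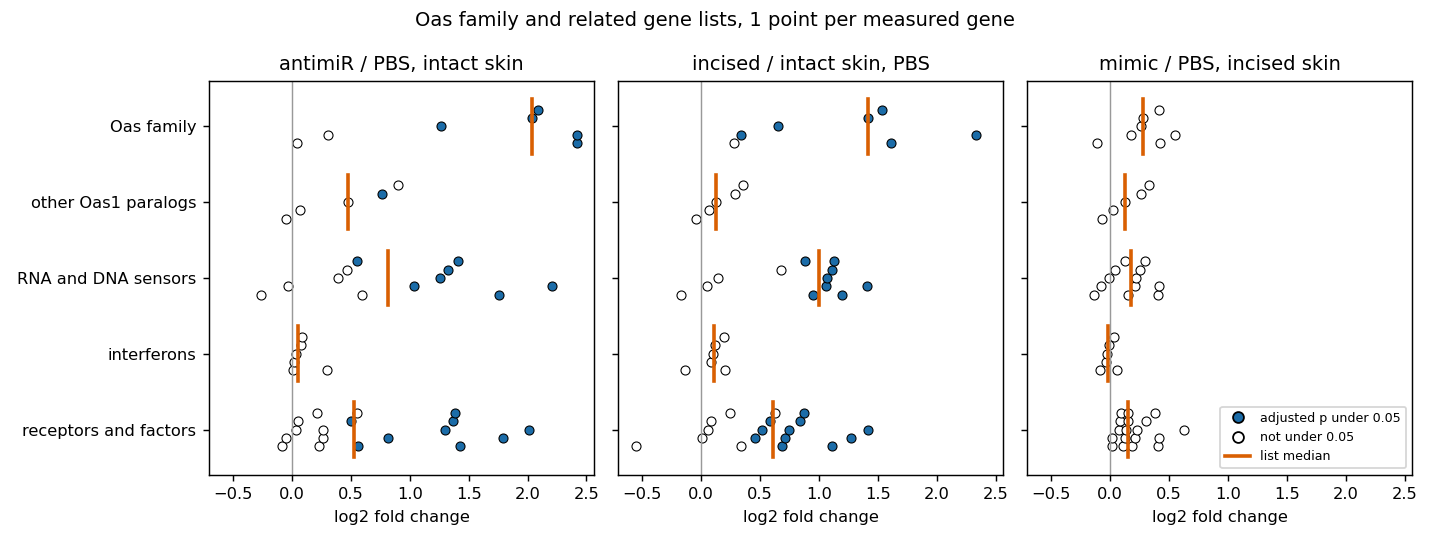
Log2 fold change of each measured gene in the Oas family, its other paralogs and related lists, in 3 comparisons. Filled points have an adjusted p under 0.05 and vertical bars are list medians. With antimiR the family's median is 2.04. Left of it lie those of the sensors (0.82), receptors and factors (0.52), other Oas1 paralogs (0.48) and interferons (0.05).

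Over the 12 arrays the genes whose pattern was most like the family's mean were TC1691508 (Pearson r 0.993), which the files do not pair with a gene symbol, Eif2ak2 (0.992), Trim30a (0.986), Adar (0.985) and Phf11d (0.985). All points share the difference between intact PBS skin and the rest. For single members the nearest genes were Trim30a for Oas2 (0.993), Batf2 for Oas3 (0.986), TC1691508 for Oasl1 (0.989) and Phf11d for Oasl2 (0.990). For Oas1b the nearest was Gm6252 (0.977), and for Oas1g AU022793 (0.935). For Oas1a, over the 9 arrays with a value, it was Fcgr4 (0.997).

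Markers of other cells were read beside the family. As a background, 5.22% of all genes were called higher with antimiR and 9.86% in incised skin under PBS. Of 7 macrophage and monocyte markers measured, 3 were called higher with antimiR, Fcgr1 by 2.49, Ccr2 by 1.47 and Cd68 by 1.26. Adgre1 at 0.82, Csf1r at -0.23, Mrc1 at -0.62 and Cd163 at -0.83 were not called. The list's score per array ran from -0.74 to 0.10 with antimiR, against -1.40 to -0.22 in intact PBS skin, which overlap. In incised skin under PBS 5 of the 7 were called higher, and the score ran from 0.26 to 0.41, against -1.40 to -0.22 in intact skin. With mimic the score ran from 0.70 to 0.73, above the 0.26 to 0.41 of incised PBS skin, and 0 of 7 were called.

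Of 6 neutrophil markers, 1 was called higher with antimiR (S100a9) and 2 in incised skin (S100a9 and Cxcr2). Of 5 plasmacytoid dendritic cell markers, these were 1 (Irf8) and 2 (Irf8 and Tcf4). Irf8 was also counted among the interferon signalling genes above. Of all genes, 5.22% were called higher with antimiR and 9.86% in incised skin, and 4.46% were called lower with antimiR. With mimic 0.386% of all genes were called lower, and 12.5% had an unadjusted p under 0.05. The neutrophil granule gene Ngp was well above background on 0 of 12 arrays. The neutrophil score ran from -0.39 to -0.10 with antimiR and from 0.12 to 0.26 in incised PBS skin, against -0.46 to -0.24 in intact PBS skin. The dendritic cell score ran from -0.03 to 0.16 and from 0.13 to 0.21, against -0.25 to -0.12. Of the T and NK cell markers and of the keratinocyte markers 0 were called by limma in either comparison. At an unadjusted p under 0.05 there were 1 and 1 of the 7 T and NK cell markers with antimiR and in incised skin, and 2 and 3 of the 6 keratinocyte markers. Over all genes 24.1% with antimiR and 31.4% in incised skin had such a p. Of 5 skeletal muscle markers, 2 were called lower with antimiR (Acta1 and Myh1). The muscle score ran from -0.29 to -0.18 there, against 0.11 to 0.37 in intact PBS skin. In incised skin under PBS 2 were called higher (Myh4 and Pvalb). However, only 3 of 5 values were positive, with a median of 0.05, and the score of 0.23 to 0.33 lay within that of intact PBS skin. With mimic 2 were called lower (Myh1 and Pvalb) and 5 of 5 had an unadjusted p under 0.05, with a score from -0.41 to -0.11, against 0.23 to 0.33 in incised PBS skin. Of 6 fibroblast markers 0 were called by limma with antimiR, though 4 had an unadjusted p under 0.05 (24.1% of all genes). Their median was 0.62, and the score ran from 0.05 to 0.96, against -0.57 to 0.32 in intact PBS skin. With mimic 1 fibroblast marker was called lower (Dpt), and the score ran from -0.71 to -0.36, against -0.03 to 0.36 in incised PBS skin. The part of immune, muscle and fibroblast cells in the Oas readings was not tested.

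Promoter windows, from 250 bases before to 50 after the start of a gene, were at hand for 5 of the 7 members, from RefSeq on GRCm38.p6: Oas1a, Oas1g, Oas3, Oasl1 and Oasl2. They were searched on both strands for a core of the interferon-stimulated response element, spelled GAAA, then any 2 bases, then GAAA. It was found in 3 of the 5, against 3.44% of 32851 windows. TTCNNNGAA, a core of the gamma-activated site, was found in 1 of the 5 (Oas1a), against 8.30% of windows. Neither run of letters was in the windows of Oasl1 and Oasl2. The matches to the first motif are in capitals below, since they are what 3 members share, and the Oas1a stretch is short because it lies at the annotated start.
Oas1a, chr5:120907523-120907552, minus strand: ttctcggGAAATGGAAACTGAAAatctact
Oas1g, chr5:120887614-120887723, minus strand: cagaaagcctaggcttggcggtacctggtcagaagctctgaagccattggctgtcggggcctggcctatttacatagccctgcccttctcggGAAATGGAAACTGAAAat
Oas3, chr5:120777685-120777769, minus strand: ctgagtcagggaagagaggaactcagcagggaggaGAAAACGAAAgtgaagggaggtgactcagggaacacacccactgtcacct

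Oas1a and Oas1g each hold 2 overlapping matches, in a run of 73 identical bases shared by their windows. The Oas1a readings rose with antimiR and in incised skin. The Oas1g probe was near background, and its changes of 0.31 and 0.28 in the same direction were not called in the main fit. A match describes the letters only.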

How the data were processed

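The arrays were Agilent dual-colour mouse arrays, with skin RNA in Cy5 and universal mouse reference RNA in Cy3, without a dye swap. Per the file headers, Agilent Feature Extraction 11.5.1.1 gave the spot and local background intensity of each dye. Its processed intensity, deposited in the same files, was used for an alternative. A log10 ratio of these processed signals, deposited there too, entered no test. A series table of log2 values by gene name, deposited by the authors, served as an alternative. Its values had a correlation across genes of 0.891 to 0.917 with skin over reference on the same array, so that is their direction. How it was normalized is not given in the sources used here.

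Mean intensities were background-corrected by normexp (offset 50) and loess-normalized within arrays in limma 3.58.1 (R 4.3.3), with control spots at weight 0. Outlier spots were left out, so 1292 kept probes lack a value on some array. Kept probes had a gene name and a Cy5 signal well above background on 3 or more of 12 arrays, and the brightest probe stood for a gene. Of the 27175 kept probes, 21677 were named through RefSeq. The Oas1g figures set against a floor level used Cy5 after loess and Aquantile, carry no error and are open to dye bias.

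One limma fit (lmFit, eBayes) covered all 12 arrays. The call threshold was a 2-sided p under 0.05 after Benjamini-Hochberg adjustment over all genes. Values of probes that do not stand for their gene come from the same fit over all kept probes. Errors after ± are standard errors unless marked SD. For a list score, each gene's log2 ratios were centred on their mean over the 12 arrays, and the median over the list was taken per array. In a simulation of the antimiR comparison over 19473 genes, with 200 changed, 26.0% were recovered at a log2 change of 0.5, 75.0% at 1 and 94.5% at 2. Its noise was independent between genes and arrays, without slide effects, and the data had 1984 genes called. These shares therefore need not hold for the data.

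The members and lists were chosen with earlier results of these data known. Named genes are all members, the 4 of smallest p with antimiR in each list, a few pathway genes fixed by name, and the genes of highest correlation. Macrophage, neutrophil and dendritic cell markers are named where called. Oas1h, Dpt, the muscle markers, Csf1r, Adgre1, Mrc1 and Cd163 were named after their values were seen. Some genes of the lists are not reported here. Alternatives covered the background correction, processed signals, Cy5 alone, the series table, the dim-probe filter, probe averaging, the groups in the fit, trend with robust fitting, slide and replicate blocks, and each array left out.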

Additional observations from a re-analysis of the deposited data

Results flagged for a closer look

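In 4 genes of the related lists the effect of mimic in incised skin differed from the effect of antimiR in intact skin by limma's test of that difference. These were the helicase genes Dhx58 at -1.79 (adjusted p = 0.015) and Ddx58 at -1.20 (0.025), and the interferon regulatory factors Irf8 at -1.08 (0.0085) and Irf1 at -1.17 (0.032), each as log2 mimic effect minus antimiR effect. With antimiR they rose by 2.21, 1.41, 1.38 and 1.30. With mimic they stood at 0.41, 0.21, 0.30 and 0.13. Over fits that left out 1 array, all 12 kept the call of Dhx58 and of Irf8, 6 of 12 that of Ddx58 and 3 of 12 that of Irf1. Of 14 processing alternatives, 13 kept the call of Dhx58 and of Irf8, 12 that of Ddx58 and 8 that of Irf1. The Irf1 difference was as small as -0.50 among them. The other Irf1 probe had group means of 0.02 with mimic, 0.06 in incised PBS skin, 0.03 with antimiR and 0.004 in intact PBS skin. Of the 7 Oas members 0 passed this test in limma, and 5 had an unadjusted p under 0.05.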

How the results depend on the processing

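The number of the 7 Oas genes called was recomputed under 15 processing alternatives (14 for the difference of effects, where a fit of only 2 groups cannot give it) and without each array in turn. Aquantile between arrays leaves log ratios as they are and was not counted. Scaling of log ratios, adjustment over all kept probes and the most upstream probes of Oas1a and Oas1b were chosen after seeing the data. With mimic the count was 0 throughout. With antimiR it was 5, from 4 to 7 over processing alternatives and from 4 to 5 without 1 array. Oas2, Oas3, Oasl1 and Oasl2 were called in all 15 and in all 6 fits, and Oas1a in 12 and in 2. Oas1g was called in 4 of the 14 alternatives that measured it and in 1 of the 6 fits, and Oas1b in 2 of 15 and in 0. For incised against intact skin the count was 6, with 3 for Cy5 alone, 2 with only the groups compared, 0 with slide as a fixed block, and 2 to 6 without 1 array. For the difference of effects it was 0, with 1 (Oas2) under trend and robust fitting, under the replicate block and with p adjusted over all kept probes, and 0 to 1 without 1 array. Replicate numbers did not pair samples, since correlations of same-numbered deviations ran from -0.44 to 0.29. The replicate block gave 0 genes with mimic, 4 with antimiR and 5 in incised skin. Uncalled values changed sign 3 times: Oas1a with mimic was -0.20 without incised PBS array 2 (up to 0.72 without others), Oas1b with mimic was 0.0594 at its upstream probe, and Oas1b with antimiR was -0.00058 without antimiR array 3 (up to 0.10 without others). The cause of these changes was not tested. Over all genes, the main counts of 121 (mimic), 1984 (antimiR), 3161 (incised) and 224 (difference) moved by over 1.5 times to 43, 1200, 1743 and 76 with Cy5 alone, to 438, 538 and 1362 with only the groups compared, and to 0, 11 and 17 (mimic, incised, difference) with slide as a fixed block. Mimic gave 38 with processed signals, 16 in the deposited table, 71 under trend and robust fitting, 59 with slide as a random block, 77 under the replicate block and 1 to 54 without 1 array. The difference gave 348 with processed signals, 359 in the deposited table, 126 with slide as a random block and 78 to 419 without 1 array. Leaving out antimiR array 2 gave 1100 for antimiR, and leaving out incised PBS arrays gave 1693 to 1886 for incised skin. The antimiR value of Oas1g, whose probe was near background, was 1.64 with processed signals against 0.31. The incised value of Oas1a was 1.01 with slide as a fixed block against 2.34. The number of arrays limits the precision.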
